A study of Mus musculus with 9 samples.

Results

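The 9 genes described here mark retinal bipolar cells or carry their response to light: Grm6, Trpm1, Nyx and Gpr179 of the mGluR6 signalling cascade, the calcium and G-protein signalling genes Prkca, Pcp2 and Cabp5, and the transcription factor genes Vsx1 and Isl1. They were chosen by name for their roles, with earlier results of these data known, and make up 9 of the 48587 genes counted. Whole retinas of C57BL/6J mice aged 12 weeks were sequenced as poly-A RNA. In the RVO group the veins of one eye were closed by laser after injection of eosin Y as a photosensitizer, in the control group the fellow eye received the same laser scheme between the large vessels, and both were collected on d2, whereas untreated mice gave the third group. Each group had 3 pools, every pool held 6 retinas from 6 mice, and n = 3 pools per group holds throughout. Control eyes carry laser burns too, so that they stand for laser injury without venous occlusion and not for an untreated retina.

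Bipolar cells are the interneurons that pass the photoreceptor signal to the inner retina. In the dark, photoreceptors release glutamate onto ON bipolar cells, where the metabotropic receptor mGluR6 acts through the G protein Go to keep the cation channel TRPM1 closed. Light lowers glutamate, the G protein is switched off by a complex of RGS proteins and GPR179, and TRPM1 opens. Rod bipolar cells form a single ON type, while cone bipolar cells form many ON and OFF types.

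Total counts per pool ran from 12377572 to 15245869 in untreated, 18897218 to 23419497 in control and 21022997 to 28993921 in RVO retinas, and a bipolar gene had between 70 and 6443 counts in a pool, so all 9 members passed the filter on low counts. One pool stood apart: RVO replicate 2 differed from RVO replicates 1 and 3 by a chi-square per degree of freedom of 54.1 and 29.3, against 3.15 to 9.27 for all other pairs within a group. Lens crystallin and fibre genes summed to 5333 CPM (the count relative to the library's total, scaled by edgeR's TMM factors) in RVO replicate 2 and to 2743 CPM in control replicate 1, whereas the other control and RVO pools held 179 to 479 CPM and the untreated pools 2.93 to 22.9 CPM. Pigment cell markers summed to 629 CPM in RVO replicate 2, to 260 and 314 CPM in the other RVO pools, to 191 to 275 CPM in control and to 262 to 317 CPM in untreated pools. In bulk tissue a loss of bipolar cells and a loss of RNA per bipolar cell cannot be told apart.

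The sequence just upstream of the start sites is shown for 4 members, because photoreceptor and bipolar genes are known targets of OTX2 and CRX, homeodomain factors that bind the letters TAATCC. RefSeq start sites on GRCm38.p6 gave 13 windows for the 9 genes, and the motif was searched on both strands in the 250 bases before each start. It stood in 3 of the 13 windows, of 3 of the 9 genes, and in 6.25% of all 32851 windows of that length. Cabp5 held it 160 and 41 bases before the start, Trpm1 34 bases and Isl1 177 bases before it, and the Grm6 window held none. Capitals mark TAATCC or its reverse complement GGATTA.
Cabp5 upstream, chr7:13397905-13398154, plus strand: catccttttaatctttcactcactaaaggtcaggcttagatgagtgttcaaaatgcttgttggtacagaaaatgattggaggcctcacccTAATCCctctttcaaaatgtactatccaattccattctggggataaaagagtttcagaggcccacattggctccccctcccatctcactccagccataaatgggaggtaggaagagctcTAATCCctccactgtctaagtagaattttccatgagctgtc
Trpm1 upstream, chr7:64153585-64153834, plus strand: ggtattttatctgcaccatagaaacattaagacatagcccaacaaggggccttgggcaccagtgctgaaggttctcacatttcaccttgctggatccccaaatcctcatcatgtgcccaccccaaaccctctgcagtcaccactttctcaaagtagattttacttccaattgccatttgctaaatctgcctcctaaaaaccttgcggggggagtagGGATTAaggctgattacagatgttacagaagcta
Isl1 upstream, chr13:116309689-116309938, minus strand: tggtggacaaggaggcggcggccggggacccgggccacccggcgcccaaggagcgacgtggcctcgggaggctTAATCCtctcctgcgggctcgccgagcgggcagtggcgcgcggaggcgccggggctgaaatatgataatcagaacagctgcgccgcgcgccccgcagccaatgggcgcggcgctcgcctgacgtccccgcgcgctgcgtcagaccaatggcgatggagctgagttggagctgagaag
Grm6 upstream, chr11:50850435-50850684, plus strand: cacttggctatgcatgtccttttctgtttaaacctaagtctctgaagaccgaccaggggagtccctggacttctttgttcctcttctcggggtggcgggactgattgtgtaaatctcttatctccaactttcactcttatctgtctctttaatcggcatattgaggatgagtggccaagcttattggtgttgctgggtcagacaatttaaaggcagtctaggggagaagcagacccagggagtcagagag
A second homeodomain motif, TAATTA, which is its own reverse complement, was found in a window of Pcp2 and in 4.84% of all windows. The E-box CATATG stood in no member window and in 3.46% of all windows. A match describes the letters only and shows no binding.

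All members were lower in RVO than in control pools, whereas against untreated retinas the control pools were lower for some members and higher for others. In RVO against untreated retinas, 7 of the 9 genes fell at an adjusted p under 0.01 and 0 rose, with 9 lower and 0 higher at an unadjusted p under 0.05 and 7 lower by DESeq2, while 24.6% of all 16380 genes tested were lower and 27.4% higher. The median log2 fold change was -1.70 over the members and 0.01 over all genes tested. In control against untreated retinas, 4 members fell and 2 rose, against 25.2% of all genes lower and 27.2% higher, with a member median of -0.15. The share of members that rose is near that of all genes, and both rises were lost in alternative fits described below. In RVO against control eyes, 1 member (Prkca) fell and 0 rose at 0.01, against 0.634% of all genes lower and 2.7% higher; at an adjusted p under 0.05, 8 fell and 0 rose, against 17.1% and 17.5%. The 3 comparisons share samples pairwise and are not independent of each other.

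**Figure D1:**
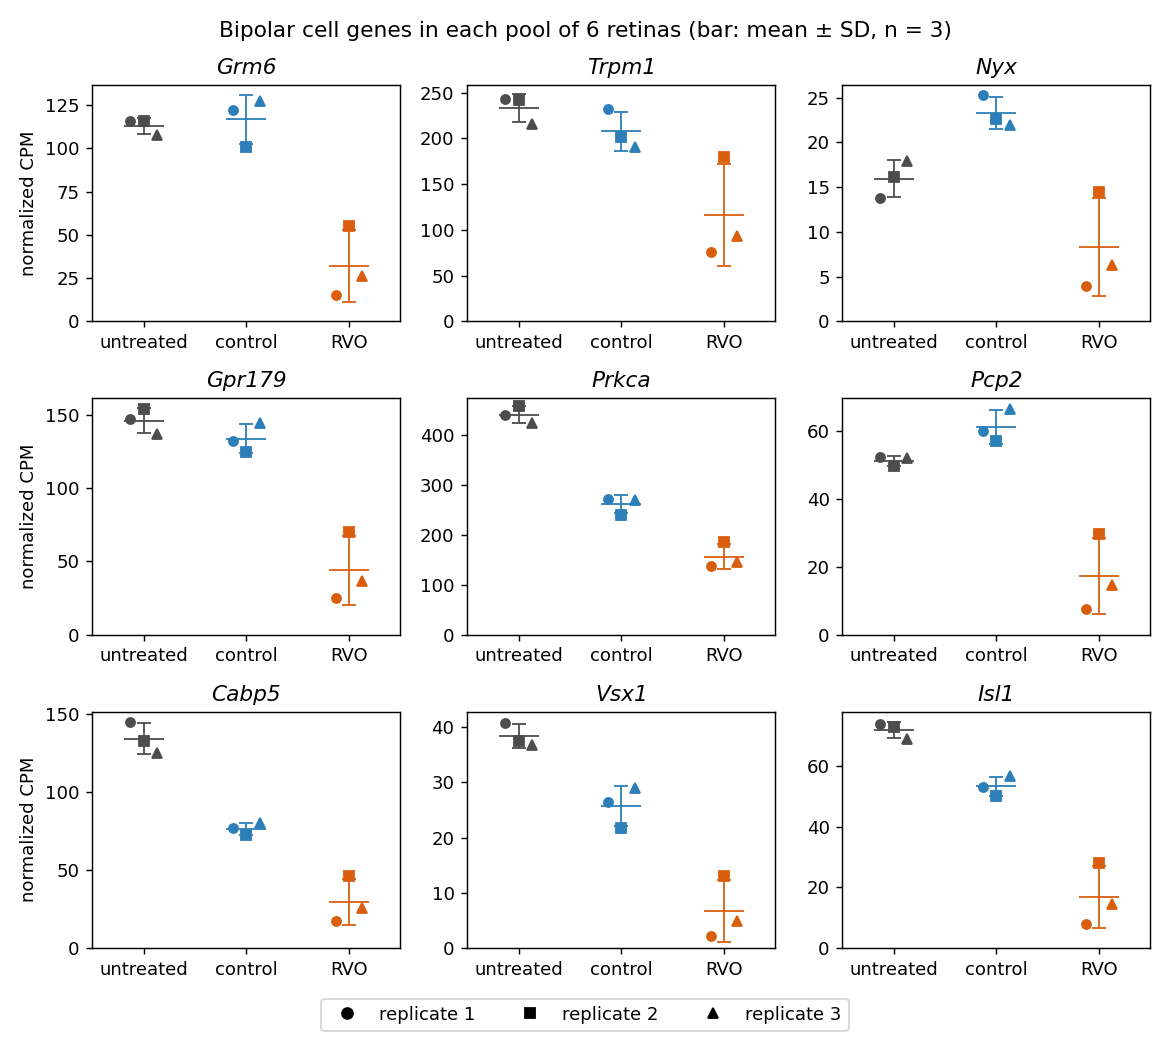
Normalized CPM (vertical axis, from 0) of the 9 bipolar cell genes in untreated, control and RVO pools; symbols are the 3 replicates and bars the mean with SD. In every panel the 3 RVO pools lie below the 3 control pools, and RVO replicate 2 is the highest RVO pool.

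Grm6 encodes mGluR6, the glutamate receptor of ON bipolar cells, and lies on chr11:50850685-50866208 (GRCm38, plus strand). Its level was 115.8, 115.5 and 107.5 CPM in the untreated pools, 121.9, 100.8 and 127.2 CPM in the control pools and 15.3, 55.4 and 26.0 CPM in the RVO pools. All RVO pools were below every other pool, and the control pools overlapped the untreated pools. The log2 fold change was -1.78 (SE 0.39, adjusted p = 0.00388) in RVO against untreated and 0.07 (SE 0.08, adjusted p = 0.459) in control against untreated. Between RVO and control pools it was -1.86 (SE 0.41, adjusted p = 0.0158). The exons of Grm6 share 599 bases with the antisense gene Gm12660, which had 3 to 19 counts per pool.

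Trpm1 encodes the channel that the cascade closes and lies on chr7:64153835-64269775. Untreated pools held 242.9, 241.7 and 215.8 CPM, control pools 231.7, 201.5 and 190.6 CPM, and RVO pools 75.3, 179.8 and 93.0 CPM. The groups control and untreated overlapped, and every RVO pool was below both. RVO against untreated gave a log2 fold change of -0.98 (SE 0.28, adjusted p = 0.0141) and RVO against control -0.84 (SE 0.29, adjusted p = 0.0595), so Trpm1 passed 0.01 in neither. The microRNA gene Mir211 lies within Trpm1 on the same strand and had 0 to 1 counts per pool. Trpm1 is also expressed by pigment cells, and in RVO replicate 2, the pool with the highest summed pigment marker level, it stood at 86.5% of the control mean, the highest share of any member in an RVO pool. The part of pigment cells in that value was not tested.

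Nyx encodes nyctalopin, a leucine-rich repeat protein that holds TRPM1 at the synapse, and lies on chrX:13466110-13489313. Its level was 13.8, 16.1 and 17.9 CPM in untreated, 25.3, 22.6 and 21.9 CPM in control and 4.02, 14.5 and 6.34 CPM in RVO pools. All control pools were above all untreated pools, and RVO replicate 2 overlapped the untreated range. Nyx rose in control against untreated by 0.56 on the log2 scale (SE 0.10, adjusted p = 0.000475). It gave -0.93 (SE 0.40, adjusted p = 0.071) in RVO against untreated, the smallest change of the 9, and -1.50 (SE 0.40, adjusted p = 0.0268) in RVO against control.

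Gpr179 encodes the orphan receptor that anchors the RGS complex in the ON bipolar dendrite, and lies on chr11:97332109-97352077. Its values were 147.1, 153.8 and 136.9 CPM in untreated, 132.3, 124.5 and 144.0 CPM in control and 25.1, 70.2 and 36.6 CPM in RVO pools. Control pools overlapped untreated pools, while the RVO pools lay apart from both. Gpr179 fell in RVO against untreated by 1.70 on the log2 scale (SE 0.32, adjusted p = 0.00182), and changed by -0.11 (SE 0.06, adjusted p = 0.15) in control against untreated. With trends of GC content and length removed, the latter became -0.48 (adjusted p = 0.000124), which passes 0.01.

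Prkca encodes protein kinase C alpha, the classical marker of rod bipolar cells, and lies on chr11:107933387-108343928. It stood at 440.3, 456.5 and 424.0 CPM in untreated, 272.0, 240.0 and 269.9 CPM in control and 137.8, 184.7 and 145.1 CPM in RVO pools. The 3 groups were fully separate, in the order untreated, control, RVO. Prkca fell by 0.74 in control against untreated (log2, SE 0.06, adjusted p = 6.24e-07), by 1.47 in RVO against untreated (SE 0.11, adjusted p = 2.64e-05) and by 0.74 in RVO against control (SE 0.12, adjusted p = 0.00989). The last of these calls was the only one among members at 0.01 in RVO against control.

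Pcp2 encodes a modulator of G-protein signalling of ON bipolar cells, and lies on chr8:3623371-3625545. The untreated pools held 52.3, 49.5 and 51.8 CPM, the control pools 60.0, 56.9 and 66.5 CPM and the RVO pools 7.59, 29.6 and 14.5 CPM. All control pools were above and all RVO pools below the untreated pools. Pcp2 rose by 0.28 (log2, SE 0.07, adjusted p = 0.00329) in control against untreated, and fell by 1.55 (SE 0.40, adjusted p = 0.00887) in RVO against untreated and by 1.83 (SE 0.41, adjusted p = 0.0169) in RVO against control. Its exons share 941 bases with Pet100 on the opposite strand, which had 112 to 456 counts per pool. The strand setting of the counting is not given in the sources used here, so the value of Pcp2 is uncertain to that extent.

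Cabp5 encodes a calcium-binding protein of rod bipolar and some cone bipolar cells, and lies on chr7:13398132-13408887, with the 2 TAATCC matches shown above. Levels were 144.8, 132.2 and 125.0 CPM in untreated, 76.6, 72.4 and 79.8 CPM in control and 17.1, 46.0 and 25.4 CPM in RVO pools. No pool of one group reached the range of another. Cabp5 fell by 0.79 in control against untreated (log2, SE 0.06, adjusted p = 4.79e-07), by 2.16 in RVO against untreated (SE 0.31, adjusted p = 0.000471) and by 1.37 in RVO against control (SE 0.31, adjusted p = 0.0169).

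Vsx1 and Isl1 are the transcription factor genes of the set. Vsx1, which marks OFF cone bipolar cells and one ON type and lies on chr2:150680702-150689360, held 40.8, 37.5 and 36.7 CPM in untreated, 26.4, 21.7 and 28.9 CPM in control and 2.23, 13.1 and 4.89 CPM in RVO pools. The 3 groups did not overlap. Its log2 fold change in RVO against untreated, -2.50 (SE 0.51, adjusted p = 0.00269), was the largest of the 9 members, beside -0.56 (SE 0.10, adjusted p = 0.000294) in control against untreated and -1.95 (SE 0.53, adjusted p = 0.0276) in RVO against control. Isl1 directs the development of ON bipolar cells, is also expressed by ganglion and starburst amacrine cells, and lies on chr13:116298281-116309689. Its values were 73.9, 72.9 and 68.9 CPM in untreated, 53.0, 50.2 and 56.6 CPM in control and 7.88, 27.9 and 14.7 CPM in RVO pools, again 3 separate ranges. Isl1 fell by 2.08 in RVO against untreated (log2, SE 0.37, adjusted p = 0.00148), by 0.41 in control against untreated (SE 0.06, adjusted p = 7.35e-05) and by 1.67 in RVO against control (SE 0.38, adjusted p = 0.0176).

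**Figure D2:**
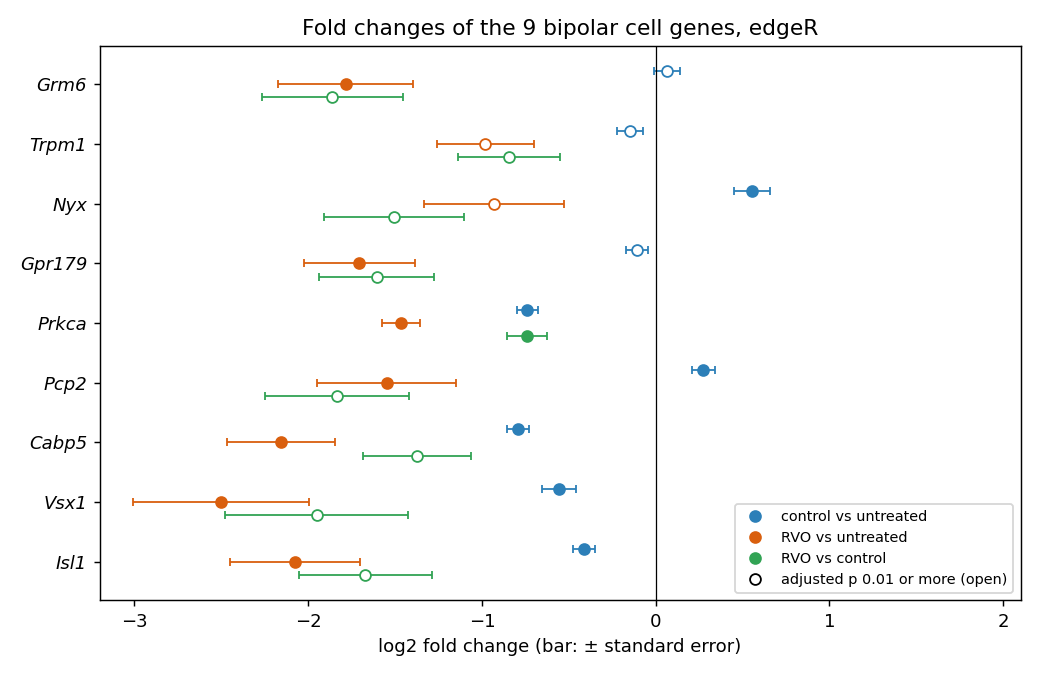
Log2 fold changes (horizontal axis) of the 9 genes in 3 comparisons, with standard errors as bars; open symbols have an adjusted p of 0.01 or more. RVO values (orange, green) are all below 0, while the control against untreated values (blue) run from -0.79 for Cabp5 to 0.56 for Nyx.

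Counted by ranges, 8 of 9 members had every RVO pool below every untreated pool, against 37.5% of all genes, and 9 of 9 had every RVO pool below every control pool, against 25.8% of all genes. For control against untreated, 4 members were wholly below (35.4% of all genes) and 2 wholly above (34.6%). Within the RVO group, all 9 members were lowest in replicate 1 and highest in replicate 2. The members stood at 8.69% to 52.9% of the control mean in RVO replicate 1 (median 17.3%), 47.5% to 86.5% in replicate 2 (median 52.6%) and 19.0% to 55.7% in replicate 3 (median 27.4%). The RVO pool with the highest member levels was thus also the pool with the highest lens and pigment marker sums. The part of lens and pigment cells in that was not tested. The order of the RVO pools was not particular to the members. For horizontal cell markers the medians in replicates 1, 2 and 3 were 17.4%, 51.5% and 29.3% of the control mean. They were 27.4%, 62.6% and 33.8% for ganglion and 37.1%, 69.8% and 43.6% for amacrine markers. Cone and rod marker medians were also highest in replicate 2, but lowest in replicate 3.

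The counts of members called depended on single pools. In RVO against untreated, leaving out RVO replicate 3 gave 3 lower members, leaving out any untreated replicate gave 4 and leaving out RVO replicate 2 gave 9. In RVO against control, leaving out RVO replicate 2 gave 9 lower members at 0.01, while leaving out any of the other 5 pools gave 0, with 8 or 9 of 9 still lower at an unadjusted p under 0.05. The same held over all genes: 107 were lower with all pools, 3315 of 17199 without RVO replicate 2 and 0 without any one of the others. Under scaling by library size alone the median of all genes shifted by 0.21 in RVO against untreated and by 0.17 in control against untreated, and the split of all genes changed from 4037 lower and 4492 higher to 2741 and 5967 and from 4045 and 4371 to 2484 and 5902. The higher calls of Nyx and Pcp2 in control against untreated were lost when trends with GC content and length were removed and when all 9 samples entered a single fit. Removing these trends left 4 members lower in that comparison, but Isl1 (-0.20, adjusted p = 0.0118) lost its call and Gpr179 gained one. The single fit left 1 lower member, Prkca. The signs of Grm6, Trpm1 and Gpr179 in that comparison changed with the scaling or with that correction.

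Levels between genes were compared as CPM per kilobase of exon. In untreated retinas Cabp5 (53.0 ± 3.97, SD) and Prkca (49.0 ± 1.81) were highest and overlapped each other, followed by Pcp2 (28.0 ± 0.811), Grm6 (20.8 ± 0.866) and Isl1 (18.2 ± 0.664). Trpm1 (15.8 ± 1.04) and Gpr179 (15.3 ± 0.893) overlapped, and Vsx1 (10.1 ± 0.575) and Nyx (3.08 ± 0.399) closed the order. In control retinas Pcp2 (33.4 ± 2.69), Cabp5 (30.2 ± 1.46) and Prkca (28.98 ± 1.99) were first, each overlapping the next. In RVO retinas Prkca led with 17.3 ± 2.80, Nyx was last with 1.60 ± 1.06, and every neighbour in the order overlapped the next.

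RNA levels of genes whose proteins act beside the receptor changed unevenly. Of 8 genes listed as postsynaptic partners, 5 fell, 1 rose and 2 did not pass 0.01 in RVO against untreated (median log2 fold change -0.56). The cells that make each of these RNAs were not told apart in whole retina. Of all genes, 24.6% fell and 27.4% rose in that comparison. In control against untreated 4 partners fell and 2 rose, against 25.2% and 27.2% of all genes. Rgs7, an RGS protein that ends the Go signal, stood at 81.3, 78.4 and 72.9 CPM in untreated, 44.8, 40.0 and 41.5 CPM in control and 12.1, 22.9 and 17.0 CPM in RVO pools, and fell by 2.14 in RVO against untreated (log2, SE 0.20, adjusted p = 6.51e-05). Gnao1, the alpha subunit of Go, which other neurons also express, fell by 1.27 (SE 0.20, adjusted p = 0.000685). Rgs9bp, an RGS anchor that photoreceptors also use, fell by 1.08 (SE 0.12, adjusted p = 0.000163), Rgs11 by 0.72 (SE 0.13, adjusted p = 0.00158) and Gnb5, the beta subunit bound by these RGS proteins, by 0.39 (SE 0.06, adjusted p = 0.00099).

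The beta and gamma subunits of the cascade's G protein, Gnb3 and Gng13, were higher in control than in untreated retinas. Gnb3, which cones express as well, was 341.4, 332.1 and 342.2 CPM in untreated, 884.3, 1101 and 899.3 CPM in control and 1335, 1043 and 1267 CPM in RVO pools. All laser-treated pools were above the untreated pools, and control and RVO pools overlapped. Gnb3 rose by 1.88 (log2, SE 0.10, adjusted p = 6.11e-06) in RVO and by 1.53 (SE 0.08, adjusted p = 4.8e-08) in control against untreated. Gng13 was 12.7, 16.0 and 18.0 CPM in untreated, 39.3, 37.6 and 42.1 CPM in control and 5.17, 24.0 and 11.8 CPM in RVO pools, so that control pools were above all others. It rose by 1.36 in control against untreated (SE 0.11, adjusted p = 5.09e-07), and gave -0.17 (SE 0.46, adjusted p = 0.752) in RVO against untreated and -1.55 (SE 0.45, adjusted p = 0.0346) in RVO against control. Its exons share 399 bases with Chtf18 on the opposite strand, which had 76 to 248 counts per pool. Lrit3, a synaptic protein of the TRPM1 complex, gave 0.23 (SE 0.11, adjusted p = 0.0951) in RVO and -0.06 (SE 0.09, adjusted p = 0.581) in control against untreated.

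**Figure D3:**
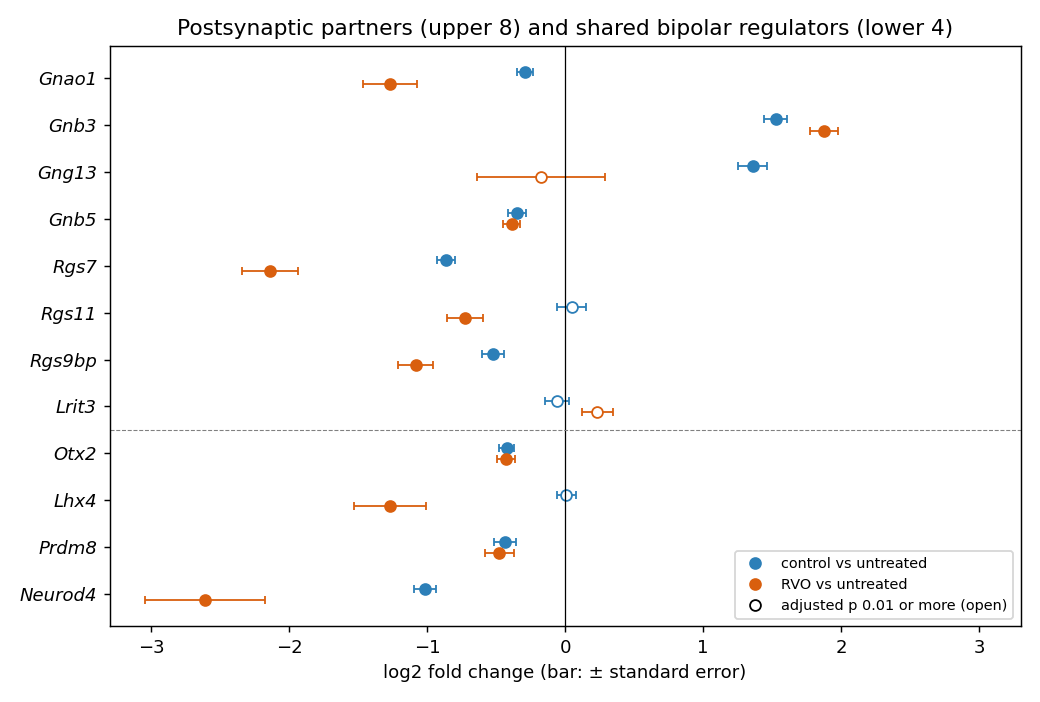
Log2 fold changes (horizontal axis, ± standard error) in control (blue) and RVO (orange) against untreated retinas. Shown are 8 genes listed as postsynaptic partners and 4 of the 5 shared bipolar regulators. Open symbols have an adjusted p of 0.01 or more. Gnb3 lies to the right at 1.53 and 1.88, and Neurod4 farthest to the left at -2.61 in RVO retinas.

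All 5 shared regulators of bipolar cells fell in RVO against untreated, and 3 fell in control against untreated. The shares of all genes that fell were 24.6% and 25.2%. Neurod4, a proneural factor, stood at 312.1, 311.3 and 261.6 CPM in untreated, 145.5, 154.0 and 132.6 CPM in control and 19.6, 82.7 and 40.1 CPM in RVO pools, and changed by -2.61 (SE 0.44, adjusted p = 0.00102) in RVO against untreated. Lhx4, a LIM homeobox gene of cone bipolar cells, fell by 1.27 (SE 0.26, adjusted p = 0.00285) in RVO against untreated, beside 0.01 (SE 0.07, adjusted p = 0.928) in control against untreated. Otx2, also expressed by photoreceptors, was 318.1, 303.6 and 285.4 CPM in untreated, 222.7, 222.3 and 223.0 CPM in control and 219.0, 219.9 and 221.8 CPM in RVO pools. Both laser groups were thus below untreated, and RVO against control gave -0.01 (SE 0.05, adjusted p = 0.864). Prdm8 gave -0.48 (SE 0.11, adjusted p = 0.00417) and -0.44 (SE 0.08, adjusted p = 0.000447) in RVO and control against untreated, and -0.05 (SE 0.08, adjusted p = 0.649) between them.

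Other genes of bipolar identity were counted with the same rule, by which 24.6% of all genes fell in RVO against untreated. All 8 further rod bipolar genes fell in RVO against untreated (median -1.67), led by the GABA receptor gene Gabrr1 (-2.37, SE 0.39, adjusted p = 0.000986) and Car8 (-1.95, SE 0.39, adjusted p = 0.00254). Among 15 cone bipolar genes, 10 fell (median -1.63), with Neto1 (-2.53, SE 0.36, adjusted p = 0.000456), Tacr3 (-2.50, SE 0.45, adjusted p = 0.00147) and Zfhx4 (-2.19, SE 0.34, adjusted p = 0.00072) farthest. Irx5 and Sox6, picked after their values were seen as the 2 of the 15 with a positive sign, gave 0.08 (adjusted p = 0.675) and 0.28 (adjusted p = 0.0614). In control against untreated the same lists gave 6 of 8 rod bipolar and 8 of 15 cone bipolar genes lower. There 1 cone bipolar gene was higher, and of all genes 25.2% were lower and 27.2% higher.

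Among 11 genes listed as presynaptic partners, 3 fell and 3 rose in RVO against untreated (median -0.29). These shares are near the 24.6% and 27.4% of all genes. Photoreceptors and other cells that may make these RNAs were not told apart in whole retina. The active zone gene Pclo gave a log2 fold change of -1.50 (SE 0.14, adjusted p = 6.36e-05), and the calcium channel genes Cacnb2 and Cacna1f fell by 1.02 (SE 0.08, adjusted p = 2.94e-05) and 0.78 (SE 0.06, adjusted p = 3.14e-05). The 3 that rose, named after their values were seen, were Dag1 (0.53, adjusted p = 0.00112), the synaptic ribbon gene Ctbp2 (0.47, adjusted p = 0.00115) and Egflam (0.35, adjusted p = 0.00565).

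The bipolar decrease stood among decreases of other retinal neurons. The counts below refer to RVO against untreated, where 24.6% of all genes fell and 27.4% rose. In RVO against untreated, 5 horizontal cell markers had a median of -2.22 (4 lower), 10 ganglion cell markers -1.52 (10 lower), 11 cone markers -1.40 (9 lower), 10 amacrine markers -1.28 (9 lower) and 13 rod markers -0.87 (12 lower, 1 higher), so the members' median of -1.70 lay between the horizontal and ganglion cell medians. Examples are Lhx1 (-2.42, adjusted p = 0.00189) and Onecut1 (-2.22, adjusted p = 0.00078) for horizontal cells, Rbpms (-1.23, adjusted p = 0.000101) and Pou4f1 (-1.81, adjusted p = 0.000654) for ganglion cells, Gad1 (-1.33, adjusted p = 0.000533) and Gad2 (-1.88, adjusted p = 0.000487) for amacrine cells, Arr3 (-2.13, adjusted p = 0.000117) and Opn1sw (-1.90, adjusted p = 0.000447) for cones, and Gnat1 (-1.21, adjusted p = 1.31e-05) for rods. In RVO against control the medians were -1.61 for the members, -1.50 for horizontal, -1.26 for ganglion, -1.01 for amacrine, -0.74 for cone and -0.36 for rod markers, and no test compared the lists. Of 10 Müller cell markers 4 fell and 2 rose (Rlbp1 -0.27, adjusted p = 0.0078; Glul -1.96, adjusted p = 5e-06). All 8 glial injury genes rose (Gfap 3.38, adjusted p = 4.85e-06; Vim 2.89, adjusted p = 1.28e-06), as did 8 of 10 myeloid markers (Cd68 2.69, adjusted p = 1.31e-05; Ptprc 2.46, adjusted p = 0.000112), while 1 fell (Csf1r, named after its value was seen, -1.01, adjusted p = 0.00171). Of 11 pigment cell markers 1 fell (Rpe65, -1.22, adjusted p = 0.0025) and 1 rose. Best1, at 1.06 (adjusted p = 0.0379), did not pass 0.01. Of 6 lens markers tested 4 rose (Cryaa 6.85, adjusted p = 0.00335, and Crygc 8.72, adjusted p = 0.00334). The glial injury genes summed to 247 to 263 CPM in untreated, 1574 to 2066 CPM in control and 3308 to 3521 CPM in RVO pools, and the myeloid markers to 48.9 to 69.2, 82.3 to 102.5 and 147 to 169 CPM. These glial and myeloid sums rose from untreated to control to RVO pools, and their part in the lower bipolar values was not tested.

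**Figure D4:**
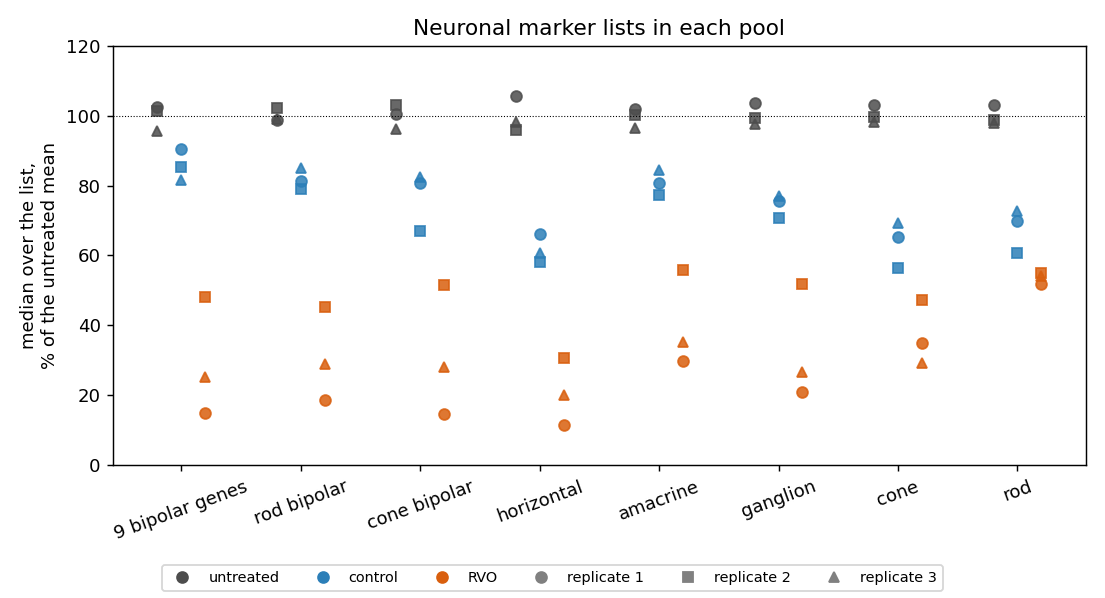
Median over each marker list of the level as a percentage of the untreated mean (vertical axis, from 0), for each pool; colours are the groups and symbols the replicates. The RVO pools stand at 14.8%, 48.1% and 25.1% for the 9 bipolar genes and at 52.0%, 54.9% and 54.0% for the rod markers. For the horizontal cell markers they stand at 11.5%, 30.5% and 20.1%.

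Across the 9 pools the genes most like Grm6 in pattern, by the root mean square difference of centred log2 CPM among 17111 genes, were Pcsk6 (0.068), Lect1 (0.102), Pcp2 (0.127), Gpr179 (0.161) and Dync1i1 (0.162). Of these, Pcsk6 encodes a proprotein convertase and Dync1i1 a dynein chain, and Pcp2 and Gpr179 are members of the set. Pcsk6 held 28.6 ± 1.49 CPM in untreated, 26.5 ± 2.45 CPM in control and 7.72 ± 5.17 CPM in RVO pools (mean ± SD), and Dync1i1 held 49.6 ± 0.0695, 45.3 ± 3.65 and 15.7 ± 10.1 CPM. In both genes the control mean lay near the untreated mean and the RVO mean far below it. The search selected for this pattern of Grm6, so it is no separate result.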

How the data were processed

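Poly-A RNA of 3 pools per group was sequenced with a stranded kit. Per the labels and the study's methods, the authors mapped reads with STAR 2.5.2b to the mouse genome with GENCODE vM11 genes and counted them with featureCounts (Subread 1.5.1); the strand setting and filters are not given in the sources used here. The deposited values are raw counts for 48679 names, of which 92 spike-in names have 0 counts. Each comparison was fitted alone with edgeR 4.0.16 (R 4.3.3): filterByExpr, TMM, quasi-likelihood test, Benjamini-Hochberg adjustment over all genes, called at an adjusted p under 0.01. SE is the log2 fold change over the root of F. DESeq2 1.42.0 and other scalings, filters and leave-one-out fits were alternatives. Coordinates and exon lengths are from GENCODE vM21 (46366 names matched), sequences from RefSeq (GRCm38.p6). Members, lists and tests were chosen with earlier results of these data known. Named were all members, postsynaptic partners and shared regulators, the 3 largest called changes of the presynaptic, rod and cone bipolar lists, the first 2 genes of other lists, and the 5 genes most like Grm6; 3 genes this rule names are not reported here. P-values measure the spread between pools. Statistical scripts were tested on simulated data.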

Additional observations from a re-analysis of the deposited data

Results flagged for a closer look

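Prkca differed between the RVO and the control response to laser: the log2 change against untreated was -1.47 in RVO and -0.74 in control retinas, and the test of the difference, RVO against control, gave -0.74 (edgeR, adjusted p = 0.00989, lower in 3 of 3 RVO pools). Over the single-pool omissions this adjusted p ran from 1.69e-05 to 0.0567. It was 0.0103 with DESeq2 size factors in edgeR, 0.0102 with GC content and length trends removed and 0.0314 with the replicate block. Although it alone passed 0.01, Prkca had the smallest log2 fold change of the 9 members in RVO against control, where the largest was -1.95.

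Pcp2 moved in opposite directions in the 2 groups: every control pool lay above the untreated pools, with a log2 fold change of 0.28, and every RVO pool below them, with -1.55. The difference, RVO against control, was -1.83 with an adjusted p of 0.0169 in edgeR, which misses 0.01. The rise in control pools had an adjusted p of 0.00329 in edgeR. That value was 0.0312 with GC content and length trends removed and 0.549 with all 9 samples in a single fit. Over the single-pool omissions it ran from 0.002 to 0.0299. The overlap with Pet100 on the opposite strand limits these values too.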

How the results depend on the processing

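No label ties a pool to its fellow eyes. Same-numbered RVO and control pools correlated at -0.13, -0.15 and 0.07 in their deviations from the group means. Differently numbered pools correlated at -0.20 to 0.22. With 3 pools per group these values cannot decide whether same-numbered pools came from the same mice. With the replicate block, 0 members were lower in RVO against control, with 9 lower at an unadjusted p under 0.05, and of all 16874 genes 0 were lower and 0 higher; the block gave 8 lower members in RVO against untreated and moved no count in control against untreated. In RVO against control, lower members numbered 8 with no filter, 8 by DESeq2, 8 with all 9 samples in a single fit and 8 at an adjusted p under 0.05, where all genes lower numbered 1740, 2162, 2021 and 2880 against 107, but 0 with DESeq2 size factors in edgeR, 0 with GC content and length trends removed and 0 with both those trends removed and the replicate block, with 9 at an unadjusted p under 0.05 in each of these. In control against untreated, all 9 samples in a single fit gave 1 lower and 0 higher, and removing GC content and length trends gave 0 higher without and 0 with the replicate block, with 2 higher at an unadjusted p under 0.05; 4 were lower in both, with Isl1 losing its call (-0.20 in both) and Gpr179 gaining one (-0.48 in both). Signs turned in control against untreated for Trpm1 (0.027) and Gpr179 (0.065) under library size scaling, and for Grm6 under GC content and length correction (-0.25, and -0.25 with the replicate block); none passed 0.01, and the cause was not tested.

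Leaving out 1 pool at a time gave 3 to 9 lower members in RVO against untreated, 1 to 2 higher in control against untreated and 0 to 9 lower in RVO against control. With a group down to 2 pools, fewer samples enter the fit. All members kept a negative log2 fold change in RVO against untreated and RVO against control under every alternative run. The lower depth of the untreated pools and the few pools limit the precision, and their parts in the SE were not tested. Against untreated, the SE was largest for Nyx and Vsx1, at 0.10 and 0.10 in control and 0.40 and 0.51 in RVO retinas. In RVO against control it was largest for Vsx1 (0.53) and Pcp2 (0.41).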
